A study of Mus musculus with 6 samples.

Results

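CTCF ChIP-seq regions at imprinted genes of mouse embryonic stem cells (mESCs) are described here, comparing cells that carried a wild-type CTCF with cells that carried an O-GlcNAc-deficient CTCF. A region is 1 interval of the table that the authors made by joining their peaks. It was taken when it overlapped the body of a listed imprinted gene or lay within 20 kb of it, and 134 of 57662 regions met this rule. Of the 44 genes listed, 43 were in the annotation (Kcnq1ot1 was absent and left out), 40 had at least 1 region and 3 had none, namely Ascl2, Dio3 and Ndn. The genes were grouped into 19 imprinted clusters, each of which had at least 1 region, and regions are numbered along the chromosome within their cluster.

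The series held 4 CTCF ChIP libraries, 2 biological replicates per genotype, and 1 input library per genotype that was not analysed here. Every cell came from an mESC line in which the endogenous CTCF carried a degron tag and was degraded with auxin. WT_CTCF cells received an introduced wild-type CTCF, and MUT_CTCF cells received a CTCF in which the O-GlcNAc-carrying threonine was changed to alanine. The cells were grown from picked clones, so a difference between genotypes cannot be told apart from a difference between clones.

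An imprinted gene is expressed from only the maternal or only the paternal chromosome. The choice is carried by DNA methylation that is laid down in one germ line at an imprinting control region and kept in the embryo, and imprinted genes lie in clusters that share such a region. The zinc finger protein CTCF recognises a directional sequence motif, holds chromatin loops in place and can insulate a promoter from an enhancer. At some imprinting control regions it binds only the unmethylated chromosome, since methylation of CpG dinucleotides in its site can block binding. The libraries do not separate the maternal from the paternal chromosome, so every value below is a sum over both.

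Each library's peak list gives a score per peak. The score is the authors' peak caller's own value, computed on coverage multiplied by a spike-in factor, and its definition was not stated in the sources used here. The lowest score in every library was 13. Read depth and the factors are unknown here, so a score is not an amount of bound CTCF, and a difference of depth or of the factors between libraries cannot be told apart from a difference in binding. A region counts as called in a library when a peak of that library lies in it.

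Sequences are shown first for the sites on which the results turn, because CTCF binding is directional and can depend on CpG dinucleotides. The CTCF core motif was searched in the mm9 reference on both strands as a 13-base consensus with at most 1 mismatch. It was found in 83 of 134 regions (61.9%, 95% Wilson interval 53.5 to 69.7%) and in 60.6% of all regions of the table. Each line gives the region, the position and strand of the core, and the sequence read 5′ to 3′ along that strand, with the 13-base core in capitals and 3 bases before and 4 after it in lower case.
H13 start, region 4 of the Mcts2 domain, chr2:152495126-152495138, plus strand: ccgCCACCAGAGGGCGatcg
H13 intron, region 6, chr2:152504196-152504208, plus strand: ataCCAGCAGAGGGCAtcgg
H13 intron, region 7, chr2:152519160-152519172, plus strand: cggTCACCAGGGGGCGctaa
H13 intron, region 9, chr2:152522682-152522694, plus strand: cggCCACCAGGTGGCGggct
Trpm5 intron, region 5 of the Kcnq1 domain, chr7:150272419-150272431, minus strand: ctgCCACCAGGGAGCAgaat
Trpm5 exon, region 6, chr7:150273414-150273426, minus strand: ttcCCACCAGGTGGCAgcat
Kcnq1 intron, region 13, chr7:150339900-150339912, plus strand: gagACACCAGGTGGCGctct
Ddc intron, region 2 of the Grb10 domain, chr11:11720408-11720420, plus strand: ttcCCACCAGAGGGCAccaa
Meg3, region 4 of the Dlk1-Dio3 domain, chr12:110781249-110781261, minus strand: agaCCGCTAGGGGGCGcgcg
Between Magel2 and Mkrn3, region 8 of the Snrpn domain, chr7:69545174-69545186, minus strand: tgaCCACCAGAGGGCGgacg
Beyond Mkrn3, region 9, chr7:69573413-69573425, minus strand: taaCCACTGGAGGGCGcaca
Peg3 intron, region 4 of the Peg3 domain, chr7:6680115-6680127, minus strand: tggCCACAAGGGGGCAtctg

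The cores at the H13 start and between Magel2 and Mkrn3 were letter for letter alike, so these sites differed only in the bases around the core. Of the 83 cores, 28 held at least 1 CpG (33.7%, against 35.5% of the cores in all regions), and 38 lay on the plus strand and 45 on the minus strand. The core that began with CCAGAAGAGGGC was the most frequent, in 22 of the 83 regions with a motif (26.5%) and in 36.4% of all regions with a motif. Sites of this form are known from the B2 family of short interspersed repeats of rodents, and repeats were not annotated here. Regions with this core had a median authors' mean of 55.25 and 7 of the 22 were called in all 4 libraries (31.8%), against 206.75 and 40 of 61 (65.6%) for members with any other core. The same contrast was present over the whole table, at 39.6% and 73.3%.

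MUT_CTCF libraries had fewer calls than WT_CTCF libraries, both over the whole table and at imprinted genes. Of all 57662 regions, peaks fell in 49775 and 53876 in the WT_CTCF libraries and in 33600 and 32382 in the MUT_CTCF libraries. Peaks fell in 115 and 123 of the 134 regions in WT_CTCF replicates 1 and 2, and in 72 and 66 in MUT_CTCF replicates 1 and 2. The groups did not overlap, with means of 119 ± 5.66 and 69 ± 4.24 (SD, n = 2 each), a ratio of 0.580. The gap of -50 exceeded the spread of either pair of replicates. The exact permutation test, two-sided, cannot go below 0.333 with 2 libraries against 2, and it gave that p.

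Most regions were either called in every library or missing from MUT_CTCF. All 4 libraries called 64 regions (47.8%), and 52.6% of all regions of the table were called in all 4. Both WT_CTCF libraries and neither MUT_CTCF library called 35 regions (26.1%), where the share over the table was 19.5%. A further 25 were called in 1 WT_CTCF library alone (18.7%, against 18.8% over the table). Both WT_CTCF and 1 MUT_CTCF library called 7 (5.22%, against 7.96%). In 1 library of each genotype 1 was called (0.75%), where 0.85% over the table had 1 WT_CTCF and 1 or both MUT_CTCF libraries. None was called in both MUT_CTCF libraries alone, a pattern of only 0.033% of the table. In 1 MUT_CTCF library alone 2 were called (1.49%, against 0.283%). The 2 regions called in 1 MUT_CTCF library alone were weak, with a score of 46 in MUT_CTCF replicate 1 in an intron of Airn, a non-coding RNA that overlaps Igf2r in antisense (chr17:12964978-12965176), and a score of 15 in MUT_CTCF replicate 2 near Usp29 (chr7:6925262-6925459). Their cores are printed here because both resemble the frequent form above.
Airn intron, region 11 of the Igf2r domain, chr17:12965133-12965145, minus strand: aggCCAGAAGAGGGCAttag
Near Usp29, region 8 of the Peg3 domain, chr7:6925314-6925326, minus strand: ataCCAGAAGGGGGCGtcag

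**Figure D1:**
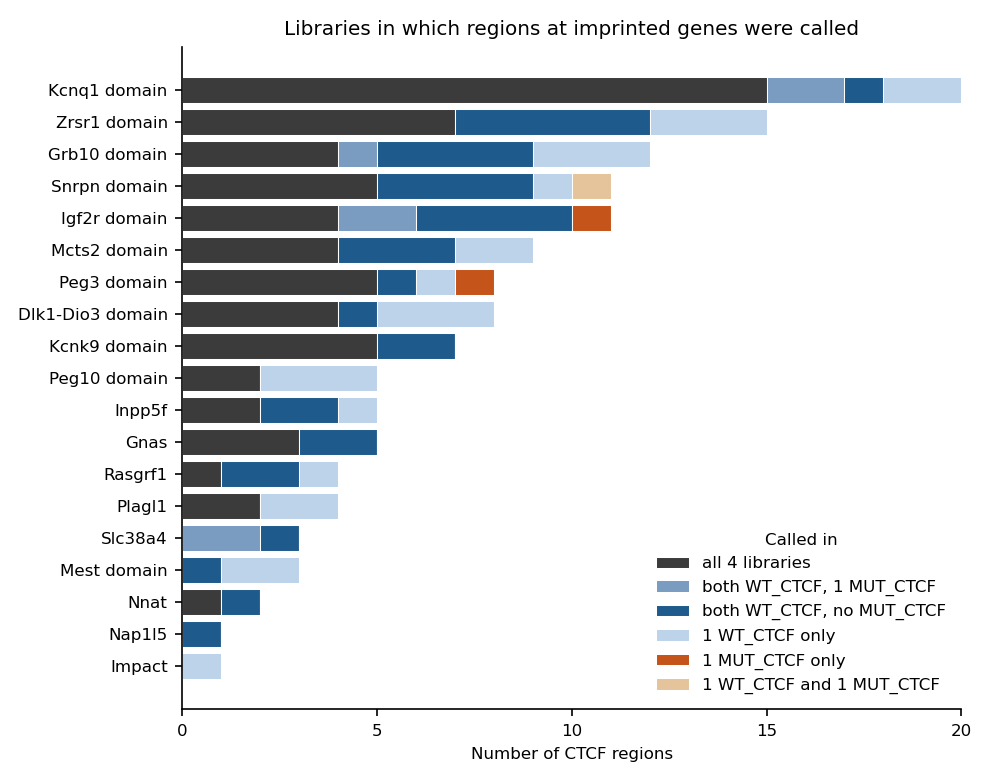
Number of CTCF regions (x axis) at the genes of each imprinted cluster (y axis), coloured by the libraries in which a peak was called. In the Kcnq1 domain 15 of 20 regions were called in every library, while the Mest domain, Slc38a4, Nap1l5 and Impact had none called in all 4.

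Calls followed the level of the region. The authors' mean, which is their scaled read count averaged over the 4 libraries, had a median of 82.9 at imprinted genes and 95.3 over the table. This mean comes from the same 4 libraries as the calls, so the 2 are not independent. Of the 42 members with a mean of 200 or more, 41 were called in all 4 libraries (97.6%, against 98.4% over the table). Of the 21 members from 100 to 200, 19 were (90.5%, against 91.2%). None of the 40 below 50 was, against 0.08% over the table. In these bands the members lay near the table. In the band from 50 to 100, 4 of 31 members (12.9%) were called in all 4 and 20 (64.5%) in both WT_CTCF libraries alone, where the shares over the table were 29.9% and 35.2%. These bands were chosen after the values were seen, and the difference from the table was not tested.

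Members at the starts of listed genes and CpG-rich members were few, and most of them had no MUT_CTCF call. Within 1 kb of a start of a listed gene lay 20 regions, of which 12 (60%) were called in no MUT_CTCF library. The share was 41.1% for all regions within 1 kb of a start of any gene. These definitions differ, since members near the start of an unlisted gene alone, such as Trpm5, were not among the 20. Of the 10 regions whose ratio of observed to expected CpG was over 0.6, 7 (70%) were called in no MUT_CTCF library, against 50.9% of such regions in the table. Both sets of members also had a lower median authors' mean than the matching regions of the table. It was 79.6 against 126 near starts and 75.6 against 153 for CpG-rich regions, and its part in the differences was not tested.

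For the regions called in all 4 libraries, the log2 score was compared between genotypes with limma over all 30317 such regions of the table. Members without a call in every library were not in this fit, the 35 regions called in both WT_CTCF libraries alone among them. As deposited, scores were lower in MUT_CTCF nearly everywhere. The study reported the opposite direction for chromatin binding, an increase in MUT_CTCF, from spike-in normalised read counts and from immunoblots. It also reported higher chromatin accessibility at the peaks it called enhanced, and like results in additional WT_CTCF and MUT_CTCF clones. Why the scores differ from the reported direction was not tested. The library medians of the log2 score were 9.15 and 9.28 in WT_CTCF and 8.04 and 7.97 in MUT_CTCF, a difference of -1.21. On the deposited scale 56 of the 64 members tested were lower (adjusted p below 0.05), 8 did not pass and none was higher, where 90.8% of all regions tested were lower. The median score of the 64 members was 679.5 and 714.5 in WT_CTCF and 358 and 326 in MUT_CTCF.

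To read regions against this common shift, each library was centred on its median, and a relative difference is the log2 difference of MUT_CTCF minus WT_CTCF after that step. Errors given after ± for these differences are standard errors (SE) of the fit. A relative difference of 0 therefore stands for a score that fell by as much as the median region. At imprinted genes, 5 regions were lower (7.81% of 64), 6 were higher (9.38%) and 53 did not pass. The shares over all regions tested were 8.49% lower and 10.9% higher, so the members' counts lay near the table's. The median relative difference was 0.15 at imprinted genes and 0.03 over the table. It was 0.02 at imprinted genes when libraries were centred on the regions with the highest authors' mean, and -0.01 when uncalled libraries were entered at their lowest score.

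**Figure D2:**
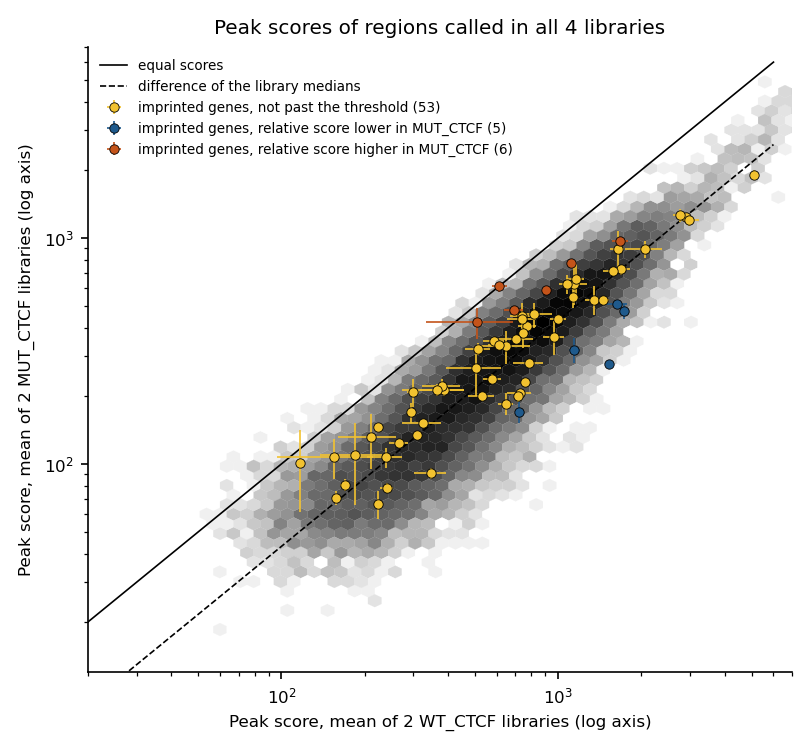
Mean peak score in MUT_CTCF (y axis, log) against WT_CTCF (x axis, log) for regions called in all 4 libraries. Grey hexagons hold all 30317 regions, darker where there are more, coloured points are the 64 regions at imprinted genes with bars from the lower to the higher replicate, and the 53 members not past the threshold scatter around the dashed line at the difference of the library medians of -1.21 on the log2 scale.

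**Figure D3:**
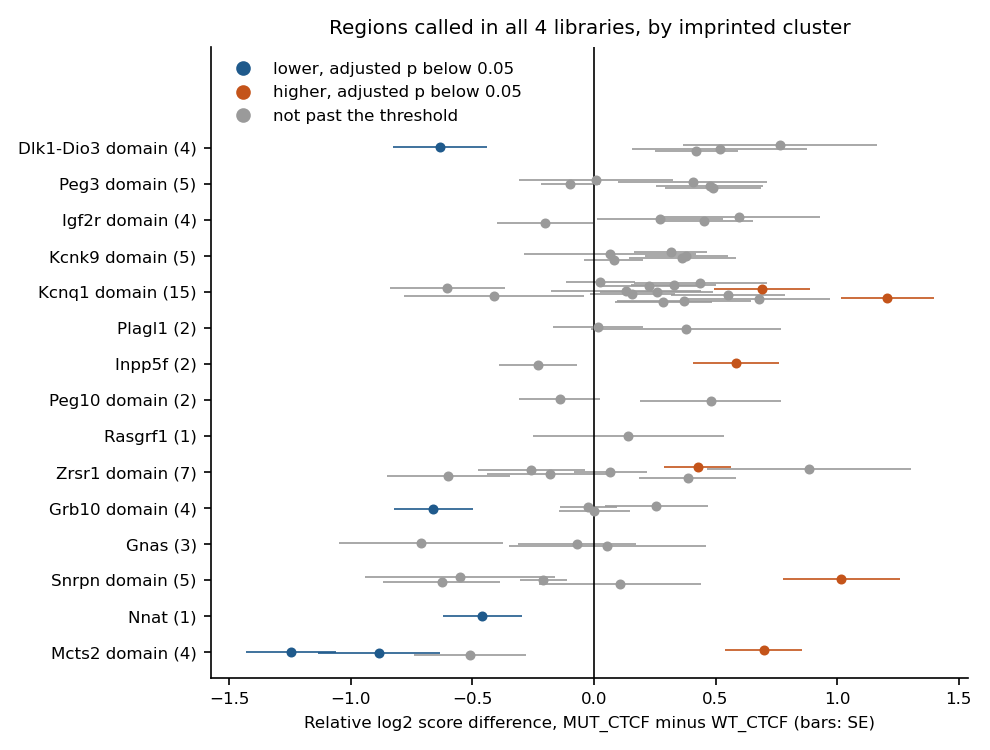
Relative log2 difference of the peak score, MUT_CTCF minus WT_CTCF, with its standard error, for the 64 regions called in all 4 libraries, by cluster with the number of regions in parentheses. The lowest value, -1.25, and a value of 0.70 both lay in the Mcts2 domain, and the highest, 1.21, in the Kcnq1 domain.

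The Mcts2 domain held the lowest member and one of the higher ones, 2773 bp apart. H13 encodes signal peptide peptidase, and Mcts2 is a retrogene inside an H13 intron whose promoter is an imprinted CpG island. Of its 9 regions 4 were called in all 4 libraries, and 7 of the 8 motifs pointed along the plus strand, the direction of both genes. Region 7, in an H13 intron (chr2:152518819-152519487), scored 1525 and 1526 in WT_CTCF and 284 and 271 in MUT_CTCF. The MUT_CTCF scores were 0.182 of the WT_CTCF scores, and the relative difference was -1.25 ± 0.19 (SE, limma adjusted p = 5.17e-07). It passed in each of the 12 other fits made, but the number of fits kept, here and below, overstates how varied they were. On scores as deposited, 90.8% of all regions tested were lower. The fits with an authors' mean of at least 50, with the mean of a region's peaks and with a replicate block each kept all 11 reported calls.

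Region 9, in an H13 intron and an exon of Gm17559 (chr2:152522260-152522970), had scores of 1102 and 1117 in WT_CTCF and 753 and 802 in MUT_CTCF. Its groups did not overlap, yet its score fell by less than the median region's, with a relative difference of 0.70 ± 0.16 (SE, limma adjusted p = 0.000797). The ratio of the scores of region 9 to region 7 within a library needs no centring between libraries. It may still change with read depth or the spike-in factor, since the definition of the score is not stated. On the log2 scale it was -0.47 and -0.45 in WT_CTCF and 1.41 and 1.57 in MUT_CTCF. Region 7 thus had the higher score in both WT_CTCF libraries and region 9 in both MUT_CTCF libraries. The change of 1.95 was the largest of 13 neighbouring member pairs at most 5 kb apart, and 64 of 4663 such pairs in the table changed by as much or more.

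Region 6, also in an H13 intron (chr2:152503955-152504470), had scores of 740 and 706 in WT_CTCF and 188 and 152 in MUT_CTCF, and a relative difference of -0.88 ± 0.25 (SE, limma adjusted p = 0.0074). Its call was lost without WT_CTCF replicate 1 (-0.79) and without WT_CTCF replicate 2 (-0.98). A fit without 1 library leaves its genotype with a single library. Without either WT_CTCF library, calls were fewer over the whole table too. A call lost without a WT_CTCF library, here and below, therefore need not be particular to the region. Region 4 covered the H13 start (chr2:152494873-152495319, observed to expected CpG 0.883). Its scores were 745 and 768 in WT_CTCF and 238 and 221 in MUT_CTCF, with a relative difference of -0.51 ± 0.23 that did not pass (SE, limma adjusted p = 0.108). Centred within deciles of the authors' mean, a step chosen after the data were seen, it passed at -0.64 (limma adjusted p = 0.0495). Region 5, with scores of 273 and 203 in WT_CTCF, and regions 1 and 2 upstream of H13 had calls in both WT_CTCF replicates and in no MUT_CTCF replicate.

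**Figure D4:**
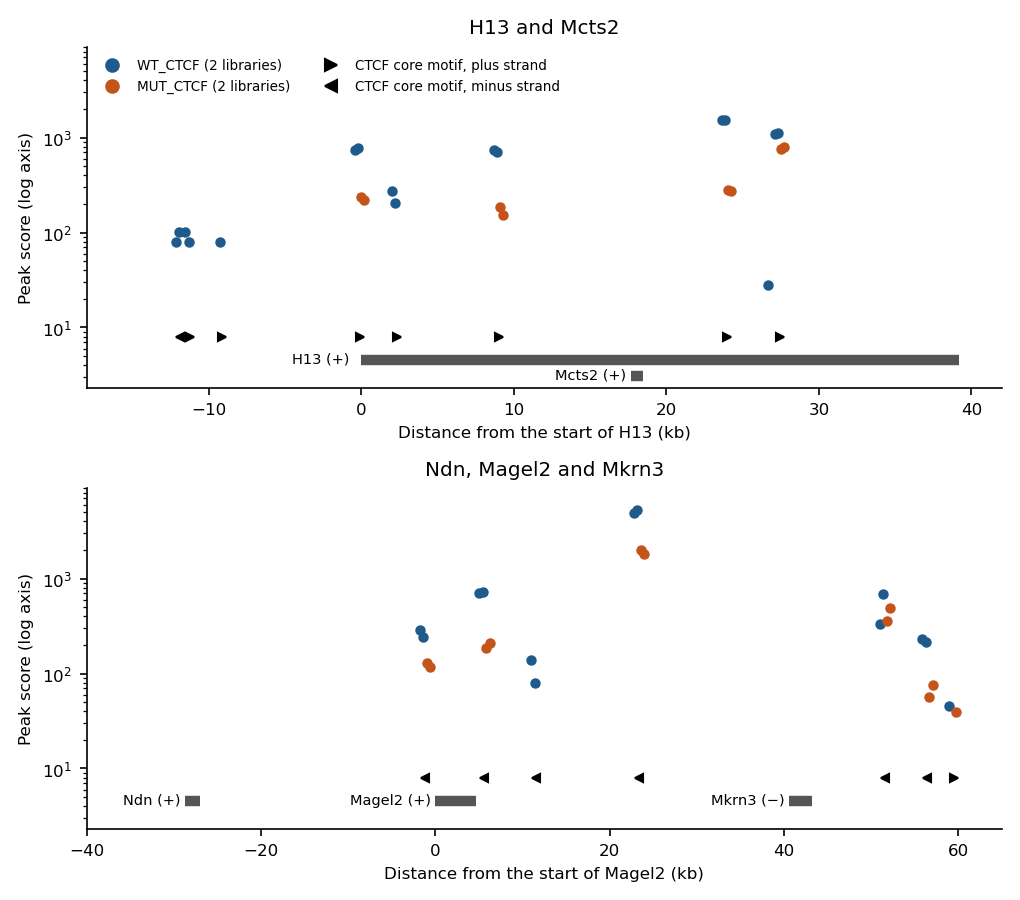
Peak score in each library (y axis, log; a missing point means no call) against distance from the start of H13 (top, kb) and of Magel2 (bottom, kb), with arrowheads for the strand of the CTCF core motif and grey bars for genes with their strand. In the top map the MUT_CTCF points fall far below the WT_CTCF points at region 7 (284 and 271 against 1525 and 1526) and little at region 9 (753 and 802 against 1102 and 1117), and in the bottom map 6 of 7 motifs point along the minus strand.

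The Kcnq1 domain held the most regions, 20, and the member with the highest relative score. It contains Kcnq1, a potassium channel gene, Cdkn1c, an inhibitor of the cell cycle, Phlda2, which restrains growth of the placenta, and the membrane protein genes Cd81 and Tspan32. Of the 20 regions 15 were called in all 4 libraries, 18 had a motif and the median relative difference was 0.29. Region 5 lay in an intron of Trpm5, 20007 bp from the nearest listed gene start (chr7:150272113-150272712), and had scores of 651 and 575 in WT_CTCF and 641 and 579 in MUT_CTCF. The groups overlapped, so this region did not share the fall of the others, and its relative difference was 1.21 ± 0.19 (SE, limma adjusted p = 2.55e-06). It kept its call in 11 of 12 other fits, all but the one on scores as deposited (-0.01).

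Region 6 lay 580 bp from region 5, in an exon of Trpm5 (chr7:150273292-150273666), and fell with the rest, from 228 and 253 in WT_CTCF to 74 and 82 in MUT_CTCF. Its relative difference was -0.41 ± 0.37 (SE, limma adjusted p = 0.472). Both cores lay on the minus strand, as printed above. Within a library, the log2 ratio of region 6 to region 5 was -1.51 and -1.18 in WT_CTCF and -3.11 and -2.82 in MUT_CTCF, a change of -1.62. Of the 4663 neighbouring pairs at most 5 kb apart in the table, 748 (16.0%) changed by over 1 log2 unit.

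Inside Kcnq1, region 13 (chr7:150339481-150340173) had scores of 639 and 745 in WT_CTCF and 495 and 467 in MUT_CTCF. Its relative difference was 0.69 ± 0.20 (SE, limma adjusted p = 0.00757), and the call was lost without WT_CTCF replicate 1 (0.64) and without WT_CTCF replicate 2 (0.74). Upstream of Cdkn1c, the motifs of regions 14, 15 and 16 lay on the minus strand, the strand of Cdkn1c. Farther upstream, those of regions 17 and 18 lay on the plus strand. Region 14, the nearest to the gene, fell from 651 and 801 in WT_CTCF to 215 and 196 in MUT_CTCF, with a relative difference of -0.60 ± 0.24 that did not pass (SE, limma adjusted p = 0.0639). Centred within deciles of the authors' mean, a step chosen after the data were seen, it passed at -0.70 (limma adjusted p = 0.0394). Regions 15 and 16 had relative differences of 0.23 and 0.33.

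The region with the highest authors' mean of the domain, 906.5, was region 20 near Phlda2 (chr7:150691468-150693194), with scores of 1737 and 2366 in WT_CTCF and 819 and 970 in MUT_CTCF and a relative difference of 0.03 ± 0.14. Its summit lay 863 bp apart between the WT_CTCF replicates and 6 bp apart between the MUT_CTCF replicates, so a difference in summit between the genotypes was not read from it. The region called in both WT_CTCF libraries and no MUT_CTCF library was region 1 upstream of Tspan32 (chr7:150188609-150188991), with scores of 189 and 245.

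The Snrpn domain held the strongest score of all members. Its genes include Snrpn, a splicing factor gene, Ube3a, a ubiquitin ligase gene, Ndn and Magel2 of the MAGE family, and Mkrn3, a makorin gene. Region 8, between Magel2 and Mkrn3 (chr7:69544869-69545635), had scores of 4966 and 5233 in WT_CTCF and 2004 and 1810 in MUT_CTCF, with a relative difference of -0.21 ± 0.10 that did not pass (SE, limma adjusted p = 0.125). Centred within deciles of the authors' mean, a step chosen after the data were seen, it was lower at -0.34 (limma adjusted p = 0.0151). Region 9, 8106 bp from the Mkrn3 start (chr7:69573145-69573793), had scores of 332 and 689 in WT_CTCF and 358 and 488 in MUT_CTCF. The groups overlapped and the WT_CTCF replicates differed by more than those of any other of the 11 regions past the threshold, and the relative difference was 1.02 ± 0.24 (SE, limma adjusted p = 0.00121). Without WT_CTCF replicate 1 it was 0.55 and the call was lost, and without WT_CTCF replicate 2 it was 1.48.

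Next to region 9, region 10 fell from 230 and 217 to 57 and 76, so the log2 ratio of region 10 to region 9 changed by -1.57 between genotypes. Changes of over 1 log2 unit were found in 16.0% of neighbouring pairs in the table. At the Magel2 start, region 5 (chr7:69520427-69520972) had scores of 287 and 245 in WT_CTCF and 129 and 118 in MUT_CTCF, a relative difference of 0.11 ± 0.33 (SE, limma adjusted p = 0.861). At the Snrpn start, region 3 (chr7:67149917-67150083) was called in WT_CTCF replicate 1 alone with a score of 37, and had an observed to expected CpG ratio of 0.888. The other region of Snrpn and both regions of Ube3a had a peak in each WT_CTCF replicate and in no MUT_CTCF replicate, with scores of 90 and 190 for region 1 in an intron of Ube3a (chr7:66500915-66501321). Region 7 beyond Magel2 had the same pattern, with scores of 138 and 79.

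The Dlk1-Dio3 domain has protein genes expressed from the paternal chromosome, among them the Notch-like ligand Dlk1, the retrotransposon-derived Rtl1 and the thyroid hormone deiodinase Dio3, and non-coding RNAs from the maternal one, among them Meg3 and Mirg. The pair of regions at the Meg3 start lay 257 bp apart. Region 4 (chr12:110780928-110781506) fell from 1195 and 1092 in WT_CTCF to 361 and 280 in MUT_CTCF, with a relative difference of -0.63 ± 0.19 (SE, limma adjusted p = 0.0143). Region 3 (chr12:110780114-110780671), with no motif, had 160 and 260 in WT_CTCF and 95 and 167 in MUT_CTCF, groups that overlapped, and a relative difference of 0.52 ± 0.36 (SE, limma adjusted p = 0.335).

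The call of Meg3 region 4 was lost without WT_CTCF replicate 1 (-0.51), WT_CTCF replicate 2 (-0.76) or MUT_CTCF replicate 2 (-0.49). Its core holds 2 CpGs and differs from the consensus by 1 base. Upstream of Dlk1, region 2 (chr12:110675710-110676494), with the highest mean of the domain, had scores of 1029 and 1129 in WT_CTCF and 564 and 688 in MUT_CTCF and did not pass at 0.42 ± 0.17 (SE, limma adjusted p = 0.0697). Region 1 near it was called in both WT_CTCF libraries alone (138 and 126), and both regions at Rtl1 in 1 WT_CTCF library each, with scores of 47 and 30.

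The Grb10 domain pairs Grb10, an adaptor that restrains insulin signalling, with Ddc, the enzyme that makes dopamine from its precursor. Region 2, in a Ddc intron (chr11:11720016-11720803), fell from 1771 and 1691 in WT_CTCF to 440 and 508 in MUT_CTCF, with a relative difference of -0.66 ± 0.16 (SE, limma adjusted p = 0.00195). The call was lost without WT_CTCF replicate 1 (-0.56). Region 1, downstream of Ddc, started at a like score (1552 and 1812) and had 762 and 689 in MUT_CTCF, a relative difference of 0.00 ± 0.15. The region with the highest mean, region 9 in a Grb10 intron (chr11:11873136-11874038), had scores of 2881 and 2926 in WT_CTCF and 1251 and 1215 in MUT_CTCF and a relative difference of -0.02 ± 0.12 (SE, limma adjusted p = 0.916).

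Region 12 covered a Grb10 exon 350 bp from a start (chr11:11925633-11925977, 0.902 observed to expected CpG, no motif). It was called with scores of 180 and 284 in WT_CTCF and not in MUT_CTCF. It was the 1 member with an authors' mean of 200 or more (206.5) that was not called in all 4 libraries, and 1.14% of all regions at that level were called in both WT_CTCF libraries alone. Region 3 at a Ddc start (chr11:11722150-11722886) had scores of 28 and 57 in WT_CTCF and no MUT_CTCF call, and region 7 was called in WT_CTCF replicate 1 alone, with 28.

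The Peg3 domain holds genes for zinc finger proteins, Peg3 and Zim1, and the ubiquitin protease gene Usp29. Region 4 in a Peg3 intron (chr7:6679706-6680944) had the highest authors' mean of all members, 1185.75. Its scores were 3216 and 2727 in WT_CTCF and 1269 and 1125 in MUT_CTCF, with a relative difference of -0.10 ± 0.12 (SE, limma adjusted p = 0.625). Region 5, 959 bp from a Peg3 start (chr7:6681625-6682171), had 99 and 105 in WT_CTCF and no MUT_CTCF call. At a Zim1 start, region 3 (chr7:6641396-6641936) had 536 and 637 in WT_CTCF and 358 and 344 in MUT_CTCF, a relative difference of 0.48 ± 0.22 that did not pass (SE, limma adjusted p = 0.120), and region 2 downstream of Zim1 gave the smallest adjusted p of the domain, 0.0723, at 0.49 ± 0.20 (SE, limma).

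The Zrsr1 domain consists of Zrsr1, a retrogene related to a splicing factor, inside an intron of Commd1, which encodes a copper metabolism protein. Of its 15 regions 7 were called in all 4 libraries and 5 in both WT_CTCF libraries alone. Region 15, 4775 bp upstream of Commd1 (chr11:22887157-22887862), had scores of 1571 and 1783 in WT_CTCF and 972 and 971 in MUT_CTCF and a relative difference of 0.43 ± 0.14 (SE, limma adjusted p = 0.0205). Its call was lost without WT_CTCF replicate 1 (0.40), WT_CTCF replicate 2 (0.46) or MUT_CTCF replicate 2 (0.39), and also when scores were centred on the regions with the highest authors' mean (0.30) or within deciles of the authors' mean (0.30), and it was kept in 4 of 12 other fits.

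At the main Commd1 start, region 12 (chr11:22882262-22882593, 0.805 observed to expected CpG) had scores of 114 and 119 in WT_CTCF and 141 and 61 in MUT_CTCF. The groups overlapped, MUT_CTCF replicate 1 was the highest of the 4, and the relative difference of 0.88 ± 0.42 did not pass (SE, limma adjusted p = 0.133). At another Commd1 start, region 6 (chr11:22856808-22857396) fell from 688 and 604 to 206 and 164, with -0.60 ± 0.25 (SE, limma adjusted p = 0.0858). Region 13 upstream of Commd1 had the highest authors' mean of the regions called in both WT_CTCF libraries alone, with scores of 101 and 68, and region 1 (138 and 79) the highest WT_CTCF score among them.

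**Figure D5:**
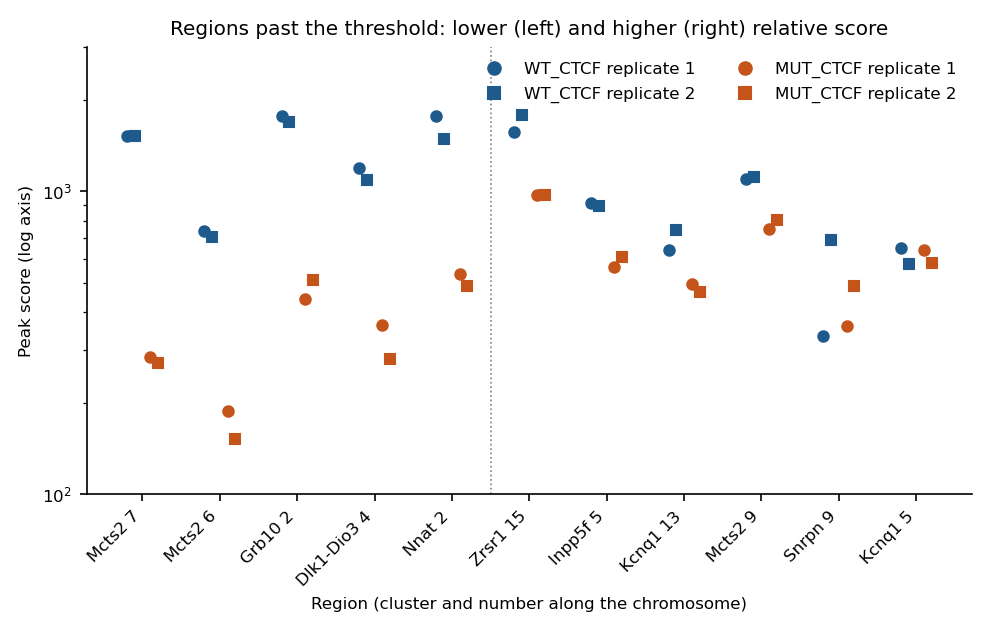
Peak score (y axis, log) in each of the 4 libraries for the 11 regions past the threshold, named by cluster and number. WT_CTCF and MUT_CTCF points are separate in all 5 regions with a lower relative score, such as 1525 and 1526 against 284 and 271 in Mcts2 region 7, and overlap in Kcnq1 region 5 and Snrpn region 9 at the right.

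Nnat encodes a membrane proteolipid of neurons. Region 2 beyond it (chr2:157397099-157397828), with no motif, fell from 1771 and 1490 in WT_CTCF to 533 and 488 in MUT_CTCF, a relative difference of -0.46 ± 0.16 (SE, limma adjusted p = 0.0356). The call was lost without WT_CTCF replicate 1 (-0.27) and without MUT_CTCF replicate 2 (-0.43), and the value without WT_CTCF replicate 2 was -0.65. Region 1, in an intron of Blcap, scored 57 and 57 in WT_CTCF and was not called in MUT_CTCF.

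Inpp5f encodes an inositol phosphatase. Region 5, in an intron of the neighbouring Mcmbp (chr7:135849024-135849747), had scores of 913 and 898 in WT_CTCF and 564 and 609 in MUT_CTCF and a relative difference of 0.58 ± 0.18 (SE, limma adjusted p = 0.0128). Its call was lost without WT_CTCF replicate 1 (0.66), WT_CTCF replicate 2 (0.51) or MUT_CTCF replicate 2 (0.49), and when scores were centred on the regions with the highest authors' mean (0.46) or within deciles of it (0.45), and it was kept in 4 of 12 other fits. Region 4, in an Inpp5f exon, fell from 1372 and 1530 to 533 and 533 with a relative difference of -0.23 ± 0.16. Region 2, 551 bp from an Inpp5f start (chr7:135810306-135810654), had 113 and 79 in WT_CTCF, region 1 had 125 and 177, and neither was called in MUT_CTCF.

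Gnas encodes the alpha subunit of the stimulatory G protein and has several imprinted promoters. Both regions within 1 kb of its starts were called in WT_CTCF only. Region 2, in an exon of Gnas and an intron of the antisense Nespas (chr2:174109437-174109837), had scores of 176 and 241 and an observed to expected CpG ratio of 0.612. Region 3 (chr2:174122795-174123068), with a CpG ratio of 0.908, had 97 and 71. The 3 regions called in all 4 libraries lay over 10 kb from the starts, and the one with the highest mean, region 4 in an intron (chr2:174136304-174136833), had 620 and 537 in WT_CTCF and 250 and 225 in MUT_CTCF with a relative difference of -0.07 ± 0.24. Region 5, 770 bp away, fell from 302 and 393 to 86 and 96, and its relative difference of -0.71 ± 0.34 did not pass (SE, limma adjusted p = 0.131).

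The Igf2r domain holds the receptor that clears insulin-like growth factor 2 and the organic cation transporter genes Slc22a2 and Slc22a3. All 4 regions called in all 4 libraries lay at Slc22a3, and none lay within 1 kb of a start. Region 3, in the last part of Slc22a3 (chr17:12613851-12614603), had the highest mean and the smallest adjusted p, with scores of 654 and 829 in WT_CTCF and 401 and 473 in MUT_CTCF and a relative difference of 0.45 ± 0.20 (SE, limma adjusted p = 0.101). At Igf2r, region 10 in an intron scored 68 and 57 in WT_CTCF and was not called in MUT_CTCF. Of the regions called in both WT_CTCF libraries alone, region 1 in an intron of Plg had the highest scores, 101 and 126.

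The Kcnk9 domain, a potassium channel gene and the trafficking gene Trappc9, kept 5 of 7 regions in all 4 libraries. Region 1 in a Kcnk9 intron (chr15:72347248-72347972) had scores of 2596 and 2926 in WT_CTCF and 1180 and 1342 in MUT_CTCF and a relative difference of 0.08 ± 0.12. Region 4 in a Trappc9 intron had the smallest adjusted p, 0.106, at 0.38 ± 0.17 (SE, limma), with scores of 1075 and 1242 in WT_CTCF and 548 and 769 in MUT_CTCF. Region 3, in another Trappc9 intron (chr15:72640392-72640826, 0.689 observed to expected CpG), scored 66 and 135 in WT_CTCF and was not called in MUT_CTCF.

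In the Peg10 domain, the region at the shared start of Sgce and the retrotransposon-derived Peg10 (region 1, chr6:4697093-4697248) was called in WT_CTCF replicate 1 alone, with a score of 64. The 2 regions called in all 4 libraries lay in introns of Ppp1r9a, an actin-binding protein gene. Region 4 (chr6:5060223-5060915) had 1255 and 1451 in WT_CTCF and 610 and 458 in MUT_CTCF with a relative difference of -0.14 ± 0.17, and region 2 had 455 and 273 against 200 and 225 with 0.48 ± 0.29 (SE, limma adjusted p = 0.254).

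Plagl1, a zinc finger gene, had 2 of 4 regions called in all 4 libraries. Region 2, 2986 bp from a start (chr10:12806938-12807511), had scores of 1066 and 937 in WT_CTCF and 458 and 415 in MUT_CTCF and a relative difference of 0.01 ± 0.19, and region 1 had 138 and 231 against 152 and 66, which overlapped, with 0.38 ± 0.39 (SE, limma adjusted p = 0.540). Rasgrf1, a guanine nucleotide exchange factor gene, had 1 of 4 in all 4 libraries, region 2 (chr9:89863921-89864349), with 163 and 177 in WT_CTCF and 76 and 86 in MUT_CTCF and a relative difference of 0.14 ± 0.39. Its regions 1 (101 and 138) and 4 (125 and 96) were called in both WT_CTCF libraries alone.

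The remaining clusters had low scores and no region called in all 4 libraries. Mest, of the hydrolase fold family, had 3 regions inside the gene, all also within 20 kb of the coatomer gene Copg2 and all within 1 kb of an annotated Mest start. Region 2 (chr6:30686994-30687321) scored 76 and 76 in WT_CTCF, regions 1 and 3 scored 57 and 79 in WT_CTCF replicate 2 alone, and none was called in MUT_CTCF. Slc38a4, an amino acid transporter gene, had region 2 at its start (chr15:96886187-96886498) with 105 and 105 in WT_CTCF and 30 in MUT_CTCF replicate 1, region 1 with 125 and 151 in WT_CTCF and 48 in MUT_CTCF replicate 1, and region 3 with 163 and 245 in WT_CTCF alone. Nap1l5, a nucleosome assembly protein gene, had 1 region, with 125 and 90 in WT_CTCF and no MUT_CTCF call. Impact, a translation regulator gene, had 1 region, called in WT_CTCF replicate 1 alone at 57.

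Regions at imprinted genes outside the list were counted by the same rule. They numbered 29, of which 21 were called in all 4 libraries (72.4%) and 4 in both WT_CTCF libraries alone (13.8%). Of the 21 tested, 1 was lower, 1 was higher and 19 did not pass, with a median relative difference of 0.01. The one with the highest authors' mean, 976.75, lay in an intron of Osbpl5 (chr7:150892446-150893206), with scores of 4584 and 4943 in WT_CTCF and 2463 and 2162 in MUT_CTCF. At the genes for factors that keep imprints, Zfp57, Trim28, Zfp445 and Dppa3, 8 of 22 regions were called in all 4 libraries (36.4%) and 7 in both WT_CTCF libraries alone (31.8%), and of the 8 tested 1 was lower and 1 higher.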

How the data were processed

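Per the labels and the study's methods, the authors trimmed reads (Trim Galore 0.4.4), aligned them to mm9 (Bowtie2 2.3.4.1), removed multiply aligned and duplicate reads, and called peaks in each library on coverage multiplied by spike-in factors (MACS2 2.1.1.20160309). Each deposited list gives the authors' score of a peak and its summit offset. The authors' deposited table gives, for each joined region, the mean scaled signal over the 4 libraries, used here. It also holds 5 columns of the authors' comparison by DESeq2 (fold change, its error, statistic, p and adjusted p), not used here. The counts behind that comparison were not analysed here, so the study's test was replaced by limma on scores.

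Scores were assigned to the 57662 regions (the highest where a region held several peaks). Regions called in all 4 libraries were fitted with limma 3.58.1 (R 4.3.3) on log2 scores with no pseudocount, centred on library medians, with a variance trend and Benjamini-Hochberg adjustment over 30317 regions, at a threshold of 0.05. Scores were also simulated for these 30317 regions with 200 changed, drawn with the same spread in every region. There, 100 of 100 changes of 2 log2 units and 65 of 100 of 1 log2 unit were recovered, with 8 false calls. The spread of the measured scores differed between regions, so these figures need not hold for them. Replicate numbers were not taken to pair libraries. The correlation of deviations of same-numbered libraries was -0.0033 and nothing in the labels ties them. Location came from GENCODE vM1 of the same build, the motif from the mm9 reference. Expected CpG is the product of the C and G counts over the length.

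The members, clusters and lists were chosen with earlier results of these data known. Named regions were, per cluster, the highest authors' mean, the smallest adjusted p, those within 1 kb of a start of a listed gene (at most 3), and the highest WT_CTCF score among regions called in both WT_CTCF libraries alone; further neighbours were named after their values were seen, as were the pairs of neighbouring regions. Alternatives were other centrings, filters, windows and left-out libraries. Other tools were matplotlib 3.10.9, scipy 1.17.1, pandas 2.3.3, numpy 2.4.6 and Python 3.11.15.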

Additional observations from a re-analysis of the deposited data

How the results depend on the processing

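Over 17 results, 202 alternative values were computed, of which 137 were labelled as kept. A named region was kept when its direction and side of the threshold held, and the difference in called regions when its sign held. The motif share was kept inside its Wilson interval. Counts were kept within a tolerance, so that 35 becoming 52 was kept. The median was kept within 0.176 of the reported value, so that -0.01 without the filter was kept although its sign changed. Of the 11 regions past the threshold, Mcts2 region 7 passed in all 12 other fits and Kcnq1 region 5 in 11, and the other 9 lost the call in at least 1 fit besides the one on scores as deposited. The fits with an authors' mean of at least 50, with the mean of a region's peaks and with a replicate block each kept all 11 calls. Those fits say little about how firm a call is. The count of lower regions, 5 of 64 tested as reported, was 56 with scores as deposited. It was 10 when centred on the regions with the highest authors' mean. It was 14 of 134 tested without a filter on calls (uncalled libraries at their lowest score), and 1 without a variance trend. It was 8 when centred within deciles of the authors' mean (chosen after the data were seen), and 3 at an adjusted p below 0.01. Over all regions tested, the share lower was 8.49% as reported and 90.8% with scores as deposited. That share was 13.4% when centred on the highest authors' mean, 9.27% without the filter, 3.22% without the trend and 8.82% within deciles. The count of higher regions, 6 of 64 tested as reported, was 0 with scores as deposited. It was 3 of 134 tested without the filter and 1 without the trend. It was 2 of 34 tested for gene bodies alone and 11 of 91 tested within 50 kb. Over all regions tested, the share higher was 10.9% as reported and 0.04% with scores as deposited. That share was 2.14% without the filter and 1.95% without the trend. A fit without 1 library leaves its genotype with a single library. Without either WT_CTCF library both counts fell, at imprinted genes and over the table. Without either MUT_CTCF library the count of higher regions rose at imprinted genes. The median relative difference, 0.15 as reported, was -1.06 with scores as deposited, 0.02 when centred on the regions with the highest authors' mean (-0.10 over the table), -0.01 without the filter (-0.10 over the table), and 0.10 to 0.17 when 1 library was left out. With scores as deposited the 6 higher regions reversed, to -0.0062 (Kcnq1 region 5), -0.19 (Snrpn region 9), -0.51 (Mcts2 region 9), -0.52 (Kcnq1 region 13), -0.63 (Inpp5f region 5) and -0.78 (Zrsr1 region 15). The 35 of 134 regions called in both WT_CTCF libraries alone became 60 with at least 1 WT_CTCF library. They became 15 when counting scores at or above the pooled median, and 36 to 52 when 1 library was left out. For gene bodies alone the count was 23 of 81 regions. The difference in called regions was -54 to -46 when 1 library was left out. With replicates paired by number, as a replicate block, it was -50 (exact sign-flip test, p = 0.5), and the block left 5 lower and 6 higher regions. The motif share was 18.7% with no mismatch (12.7% of all regions) and 79.9% with at most 2 mismatches (86.0% of all regions). Centring sets what counts as lower or higher by construction; the cause of the other changes was not tested.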
